A study of Mus musculus with 6 samples.

Results

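The 10 genes described here carry iron into the cell, store it, release it from stores or heme, export it and sense it: Ftl1, Fth1, Tfrc, Slc40a1, Slc11a2, Hmox1, Ireb2, Aco1, Steap3 and Ncoa4. They were taken by name from a fixed list, out of 35275 genes in the deposited table. All 10 were among the 10882 genes tested, those whose mean over the 6 libraries reached 1 FPKM (fragments per kilobase of gene, scaled to library depth). Slc40a1 passed that filter only through the control group.

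RNA-seq was done on mouse 3T3 cells, an immortalised line of embryonic fibroblasts. A control group of 3 libraries expressed a control construct, and an NNMT group of 3 libraries expressed a construct for NNMT, nicotinamide N-methyltransferase, which uses S-adenosylmethionine to methylate nicotinamide. Both groups were kept for 48 h in DMEM without its own methionine, to which 10 µM methionine and 10% dialyzed fetal bovine serum had been added. The promoter of each construct, the species of the NNMT sequence, and whether a group was a clone or a pool of cells are unknown here.

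Iron bound to transferrin enters cells through the transferrin receptor, is reduced in endosomes and moves to the cytosol, where ferritin shells of heavy and light chains store what is not used. A pair of iron regulatory proteins sense cytosolic iron. When iron is scarce they bind hairpins called iron-responsive elements, which stops translation of ferritin and ferroportin mRNAs and protects the transferrin receptor mRNA from decay.

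These elements are printed because they tie the ferritins, the iron exporter and the transferrin receptor to the sensors Ireb2 and Aco1. They were found in GENCODE transcripts (GRCm38) by the letters CNNNNNCAGTGN, which overlap no other motif searched, read on the transcript strand only. The 5 bases before the 6-base loop CAGTGN had to pair with the 5 after it, G-T pairs allowed. Each run is 29 bases long, 5′ to 3′, with the loop in capitals. In the 5′ UTR, the untranslated leader, 3 of the 10 genes had a match.
Ftl1, chr7:45459779-45459807, minus strand: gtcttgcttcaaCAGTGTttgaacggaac
Fth1, chr19:9982732-9982760, plus strand: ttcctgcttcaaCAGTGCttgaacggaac
Slc40a1, chr1:45925465-45925493, minus strand: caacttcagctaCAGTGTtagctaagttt
In the 3′ UTR, the untranslated trailer, Tfrc had 4 matches, all on the plus strand.
Tfrc, chr16:32631219-32631247: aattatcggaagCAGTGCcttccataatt
Tfrc, chr16:32631598-32631626: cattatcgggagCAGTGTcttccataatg
Tfrc, chr16:32631663-32631691: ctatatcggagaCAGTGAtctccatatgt
Tfrc, chr16:32631710-32631738: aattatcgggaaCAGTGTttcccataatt
Both ferritin windows shared 26 of 29 bases. From Ftl1 to Fth1 the substitutions were G1T, T4C and T18C, counted from 1 at the 5′ end of the printed run. Over all genes with an annotated UTR, the match occurred in 28 of 20546 genes (0.136%) in the 5′ UTR and in 127 of 20920 (0.607%) in the 3′ UTR. A match is a description of letters, and the other 6 genes had none in these windows.

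Depth was even, at 31622254 to 39982080 reads per library, recovered from the FPKM values. Mouse Nnmt was at 7.60, 5.25 and 6.51 FPKM in the controls and at 15.7, 15.0 and 18.3 in the NNMT libraries, 2.53-fold higher, and whether these reads include the construct's own is not known. Between the groups 65.6% of all tested genes differed (limma, Benjamini-Hochberg adjusted p under 0.05), 35.0% higher and 30.6% lower in the NNMT libraries. The median log2 fold change over all tested genes was 0.03. On the X chromosome 305 of 338 tested genes were called lower, with a median of -0.70, and all 7 tested Y chromosome genes were called higher, with a median of 2.84. Other differences between the cell populations and the effect of the construct therefore cannot be told apart in any value below. Of 10 fibroblast markers the summed level was 7269.4 to 7467.3 FPKM in controls and 9193.1 to 10361.0 in NNMT libraries. The markers did not move together: of 9 tested, 4 were called higher, among them Col1a1, and 3 lower, with Thy1 2.14-fold, Vim 1.45-fold and S100a4 1.37-fold lower (limma). Summed levels were at most 2.90 FPKM in any library for 8 macrophage markers (Spi1 and Cd163 at 0 in all 6), 0.515 for 8 erythroid markers (Gata1 at 0), 1.13 for 6 epithelial markers (Krt18 and Epcam at 0) and 0.247 for 6 endothelial markers (Cldn5 at 0). In bulk RNA, fewer cells of a kind and less RNA per cell cannot be told apart. Nothing in the labels says whether libraries of a group came from separately made cell populations, so p-values measure only the spread between these libraries.

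In the cells with the NNMT construct, mRNA of the ferritin light chain, the transferrin receptor and the iron exporter was lower, while mRNA of heme oxygenase 1, the ferritin cargo receptor Ncoa4 and the iron sensor Ireb2 was higher. The ferritin heavy chain, the sensor Aco1, the endosomal reductase Steap3 and the iron transporter Slc11a2 missed the threshold. That made 6 of 10 genes called, 3 in each direction, beside 65.6% of all tested genes, so the share was close to the background. More of the 10 were called under other scalings, given in the closing sections. Groups did not overlap for 7 of the 10 genes, beside 69.9% of all tested genes. Slc40a1 is in both counts but passed the filter only through the controls, so it adds no support to either. The median log2 fold change of the 10 was -0.07, and their median absolute change was 0.25, beside 0.24 over all tested genes.

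**Figure D1:**
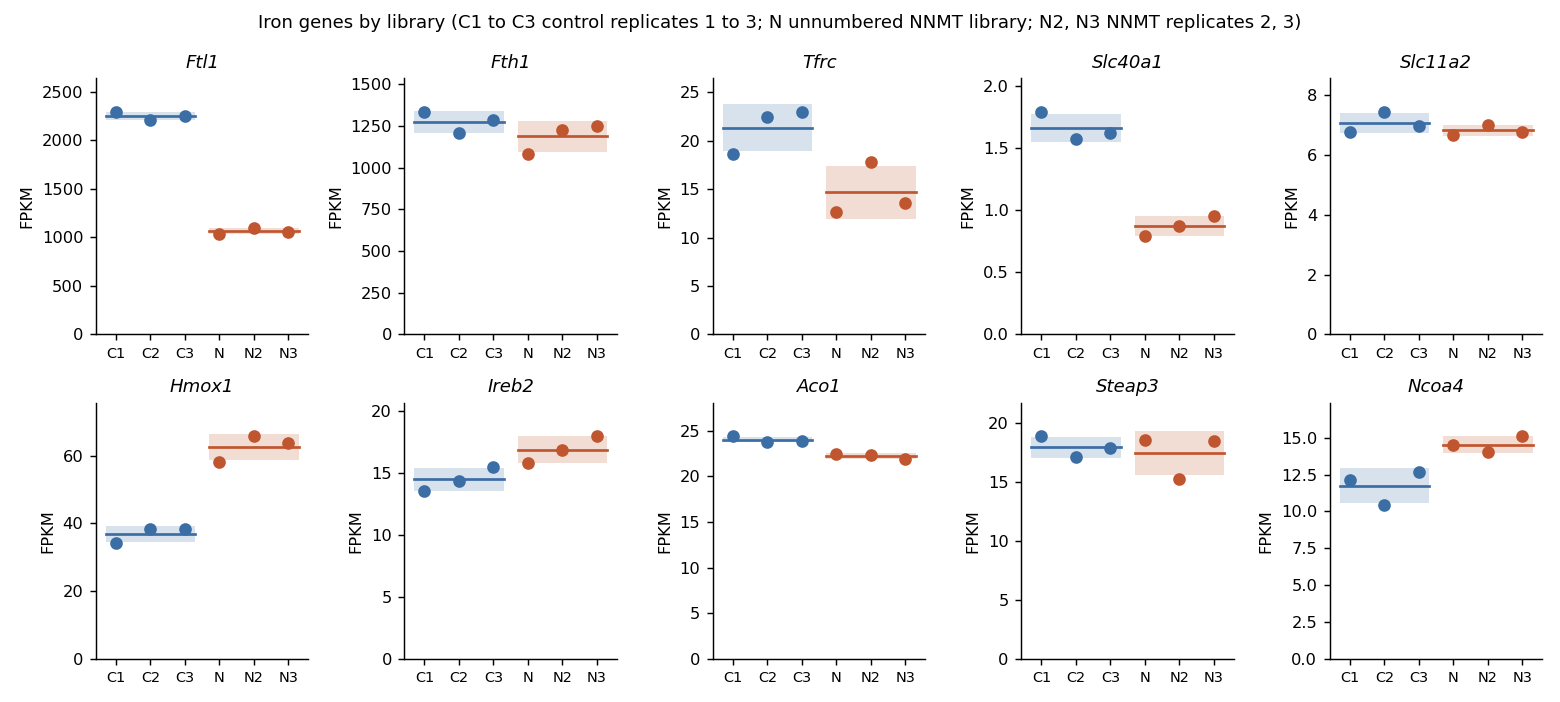
Level of each of the 10 genes in FPKM (linear axis from 0, own scale per gene) in the 3 control and 3 NNMT libraries, 1 point per library, with lines at group means and bands of 1 SD either side. The NNMT points of Ftl1 sit between 1036.9 and 1100.8, below every control point, and those of Hmox1 sit between 58.3 and 65.8, above every control point.

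Ferritin is a shell of mixed light and heavy chains, and its light chain gene showed the largest change of the 10. Ftl1 (ENSMUSG00000050708, chr7:45457944-45459884, minus strand) encodes the light chain, which helps the iron core form. It was at 2291.8, 2206.4 and 2248.5 FPKM in the controls and at 1036.9, 1100.8 and 1050.8 FPKM in the NNMT libraries. Every NNMT library lay well below every control library. The group means were 2248.9 ± 42.7 and 1062.8 ± 33.6 FPKM (SD, n = 3 each), 2.12-fold lower with NNMT, a log2 fold change of -1.08 ± 0.04 (SE, limma adjusted p 2.48e-08). Ftl1 ranked 9 by level among all genes in the controls and 41 in the NNMT libraries. A lower log2 fold change was found for 149 tested genes, 1.37% of them.

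Fth1 (ENSMUSG00000024661, chr19:9980598-9985098, plus strand) encodes the heavy chain, which holds the ferroxidase that oxidises iron for storage. Its levels were 1334.1, 1205.1 and 1286.6 FPKM in the controls and 1082.8, 1228.2 and 1250.0 FPKM in the NNMT libraries. The groups overlapped, and the lowest value was in the NNMT library without a number. The means were 1275.3 ± 65.2 and 1187.0 ± 90.9 FPKM (SD, n = 3 each), with a log2 fold change of -0.11 ± 0.06 (SE, limma adjusted p 0.162). The sign of this small value depended on the scaling. It was 0.17 (limma adjusted p 0.0107) after quantile normalization and -0.15 (limma adjusted p 0.0337) after scaling by medians of ratios.

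Both chains carry the printed 5′ UTR hairpin, and the balance between their mRNAs differed between the groups. The Fth1 to Ftl1 ratio of FPKM was 0.582, 0.546 and 0.572 in the controls and 1.04, 1.12 and 1.19 in the NNMT libraries. Light chain mRNA exceeded heavy chain mRNA per length in all 3 control libraries, and the order was turned in all 3 NNMT libraries. The ratio was 1.97-fold higher with NNMT, a log2 difference of 0.98 ± 0.06 (SE, n = 3 each, exact two-sided permutation p 0.1, the smallest that 3 against 3 allows). A length of 866 bases for Fth1, recovered from the FPKM steps, matched no GENCODE transcript of the gene (the longest has 2062), so the ratio's level rests on that length while its change does not. Summed over both chains, ferritin mRNA was at 3625.9, 3411.5 and 3535.1 FPKM in controls and at 2119.7, 2329.0 and 2300.8 in NNMT libraries, 1.57-fold lower with no overlap (exact two-sided permutation p 0.1). This sum was added after the values of each chain had been seen.

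A processed copy of the light chain gene, Ftl1-ps1 on chromosome 13, was the only 1 of 4 ferritin copies in the table that was tested. It was at 7.43 ± 0.11 FPKM in the controls and 3.95 ± 0.30 in the NNMT libraries (SD, n = 3 each), 1.88-fold lower (limma adjusted p 2.22e-06). Reads from near-identical copies can be split between them, so the copy's value is uncertain, and Ftl1 itself may hold reads of copies.

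**Figure D2:**
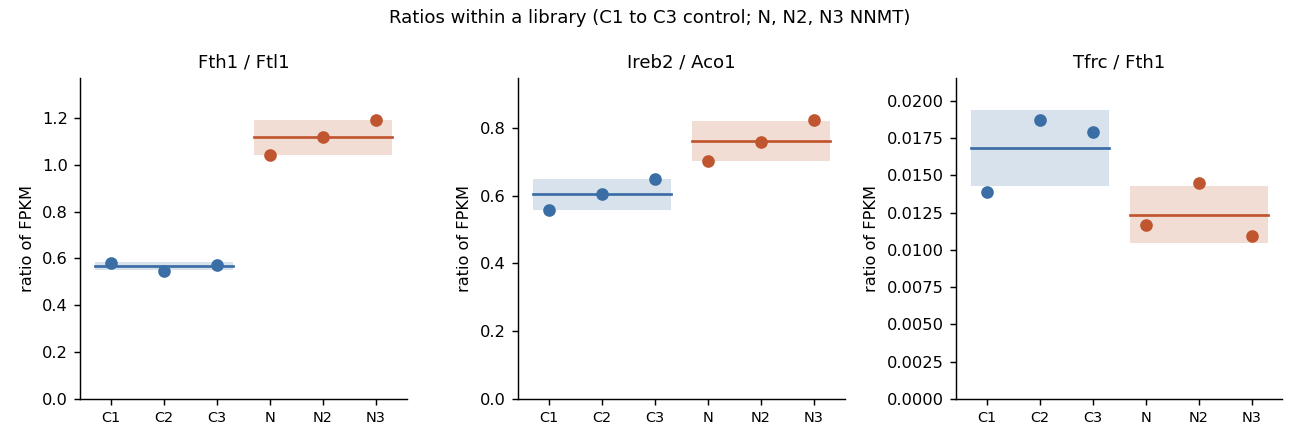
Ratio of FPKM between pairs of the 10 genes in each library (vertical axis, 1 point per library), with group means as lines and 1 SD either side as bands. The Fth1 to Ftl1 ratio runs from 0.546 to 0.582 in controls and from 1.04 to 1.19 in NNMT libraries, while the Tfrc to Fth1 ratio overlaps between groups.

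Tfrc, Steap3 and Slc11a2 act in sequence in endosomal iron uptake, and of these Tfrc alone passed the test. Tfrc (ENSMUSG00000022797, chr16:32608920-32632794, plus strand) encodes transferrin receptor 1. It was at 18.6, 22.5 and 23.0 FPKM in the controls and at 12.7, 17.8 and 13.6 FPKM in the NNMT libraries. The groups did not overlap, but NNMT replicate 2 came close to control replicate 1. The means were 21.3 ± 2.42 and 14.7 ± 2.76 FPKM (SD, n = 3 each), 1.45-fold lower, with a log2 fold change of -0.52 ± 0.11 (SE, limma adjusted p 0.00251). That SE was the widest among the 10 genes.

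Steap3 (ENSMUSG00000026389, chr1:120190757-120272705, minus strand) encodes the reductase that turns ferric into ferrous iron in endosomes. It was at 18.9, 17.1 and 17.9 FPKM in the controls and at 18.6, 15.3 and 18.5 FPKM in the NNMT libraries. The groups overlapped fully, apart from a low value in NNMT replicate 2. Its log2 fold change came to -0.04 ± 0.07 (SE, limma adjusted p 0.629), and without NNMT replicate 2 it was 0.05 (limma adjusted p 0.495). Slc11a2 (ENSMUSG00000023030, chr15:100387898-100425072, minus strand) encodes the divalent metal transporter that moves ferrous iron into the cytosol. It was at 6.77, 7.44 and 6.98 FPKM in the controls and at 6.66, 7.01 and 6.78 FPKM in the NNMT libraries, again overlapping. A gene model, Gm5475, overlaps Slc11a2 on the other strand, and without a stated strand setting their reads cannot be told apart. Its log2 fold change came to -0.04 ± 0.06 (SE, limma adjusted p 0.509).

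Slc40a1 (ENSMUSG00000025993, chr1:45908068-45926523, minus strand) encodes ferroportin, the iron exporter, and was the least abundant of the 10. It was at 1.79, 1.57 and 1.62 FPKM in the controls and at 0.795, 0.872 and 0.953 FPKM in the NNMT libraries. All 3 NNMT libraries lay below all 3 controls. The means were 1.66 ± 0.12 and 0.873 ± 0.079 FPKM (SD, n = 3 each), 1.90-fold lower, from 680 reads in the controls together and 382 in the NNMT libraries. Its log2 fold change came to -0.50 ± 0.07 (SE, limma adjusted p 0.000164) with 1 added to each FPKM, which understates changes of low genes. It was -0.93 in limma-voom on recovered reads and -0.10 with 10 added, and the call held in both.

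The ratio of Tfrc, an uptake gene, to Fth1, a storage gene, was set in each library. Iron regulatory proteins protect Tfrc mRNA from decay but stop translation of Fth1 mRNA. A ratio of mRNA levels therefore cannot show their action on Fth1. The Tfrc to Fth1 ratio was 0.0139, 0.0187 and 0.0179 in the controls and 0.0117, 0.0145 and 0.0109 in the NNMT libraries. NNMT replicate 2 lay above control replicate 1, so the groups overlapped. The log2 difference was -0.44 ± 0.18 (SE, n = 3 each, exact two-sided permutation p 0.2).

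Hmox1 and Ncoa4 release iron, from heme and from ferritin, and both were higher with NNMT. Hmox1 (ENSMUSG00000005413, chr8:75093621-75100589, plus strand) encodes heme oxygenase 1, which opens heme and frees its iron. It was at 34.2, 38.3 and 38.4 FPKM in the controls and at 58.3, 65.8 and 63.8 FPKM in the NNMT libraries. The lowest NNMT library was far above the highest control. The means were 37.0 ± 2.41 and 62.6 ± 3.87 FPKM (SD, n = 3 each), 1.69-fold higher, with a log2 fold change of 0.74 ± 0.06 (SE, limma adjusted p 3.23e-06). A higher log2 fold change was found for 480 tested genes, 4.41% of them.

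Ncoa4 (ENSMUSG00000056234, chr14:32159865-32179855, plus strand) encodes the receptor that carries ferritin to lysosomes for breakdown. It was at 12.1, 10.4 and 12.7 FPKM in the controls and at 14.5, 14.0 and 15.1 FPKM in the NNMT libraries, with no overlap. The means were 11.8 ± 1.20 and 14.5 ± 0.54 FPKM (SD, n = 3 each), 1.24-fold higher, a log2 fold change of 0.29 ± 0.07 (SE, limma adjusted p 0.00407).

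The sensors are Ireb2 (iron regulatory protein 2), whose protein is degraded when iron is plentiful, and Aco1 (iron regulatory protein 1), which becomes cytosolic aconitase when it holds an iron-sulfur cluster. Ireb2 (ENSMUSG00000032293, chr9:54863789-54912530, plus strand) was at 13.6, 14.4 and 15.5 FPKM in the controls and at 15.8, 16.9 and 18.0 FPKM in the NNMT libraries. The highest control and the lowest NNMT library nearly met. The means were 14.5 ± 0.97 and 16.9 ± 1.10 FPKM (SD, n = 3 each), 1.17-fold higher, with a log2 fold change of 0.21 ± 0.06 (SE, limma adjusted p 0.0132). The call was lost without control replicate 1 (0.17, limma adjusted p 0.0584) and without NNMT replicate 3 (0.17, limma adjusted p 0.0624).

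Aco1 (ENSMUSG00000028405, chr4:40143081-40198338, plus strand) was at 24.4, 23.8 and 23.9 FPKM in the controls and at 22.5, 22.3 and 21.9 FPKM in the NNMT libraries. The groups did not overlap, yet the means of 24.0 ± 0.32 and 22.2 ± 0.30 FPKM (SD, n = 3 each) were close. The log2 fold change of -0.11 ± 0.04 (SE, limma adjusted p 0.0523) missed the threshold. It passed after quantile normalization (-0.13, limma adjusted p 0.0217), after scaling by medians of ratios (-0.15, limma adjusted p 0.0123) and without the unnumbered NNMT library (-0.11, limma adjusted p 0.0464). The Ireb2 to Aco1 ratio was 0.559, 0.604 and 0.650 in the controls and 0.704, 0.758 and 0.823 in the NNMT libraries. Every NNMT library had the higher ratio, 1.26-fold on average, a log2 difference of 0.33 ± 0.09 (SE, n = 3 each, exact two-sided permutation p 0.1, the smallest possible).

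Tested genes differed between groups by chromosome, with median log2 fold changes from -0.23 on chromosome 4 to 0.29 on chromosome 16 among the autosomes, so each gene was set beside the other tested genes of its 10 Mb window. None of 82 genes around Ftl1 had a lower log2 fold change than Ftl1, and their median was -0.12. Around Tfrc the median of 64 genes was 0.39, with 41 called higher and 12 lower, and 2 of the 64 had a lower log2 fold change than Tfrc. Ftl1 and Tfrc thus lay below nearly all of their tested neighbours. Around Slc40a1 the median of 23 genes was 0.13. The window of Hmox1 had a median of 0.24 over 97 genes, 61 of them called higher, and 5 exceeded Hmox1. The window of Ireb2 had a median of 0.17 over 80 genes, close to the 0.21 of Ireb2 itself, with 34 genes above it. Ncoa4 lay above 28 of its 39 neighbours, whose median was 0.11. The part of the windows in the results was not tested.

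**Figure D3:**
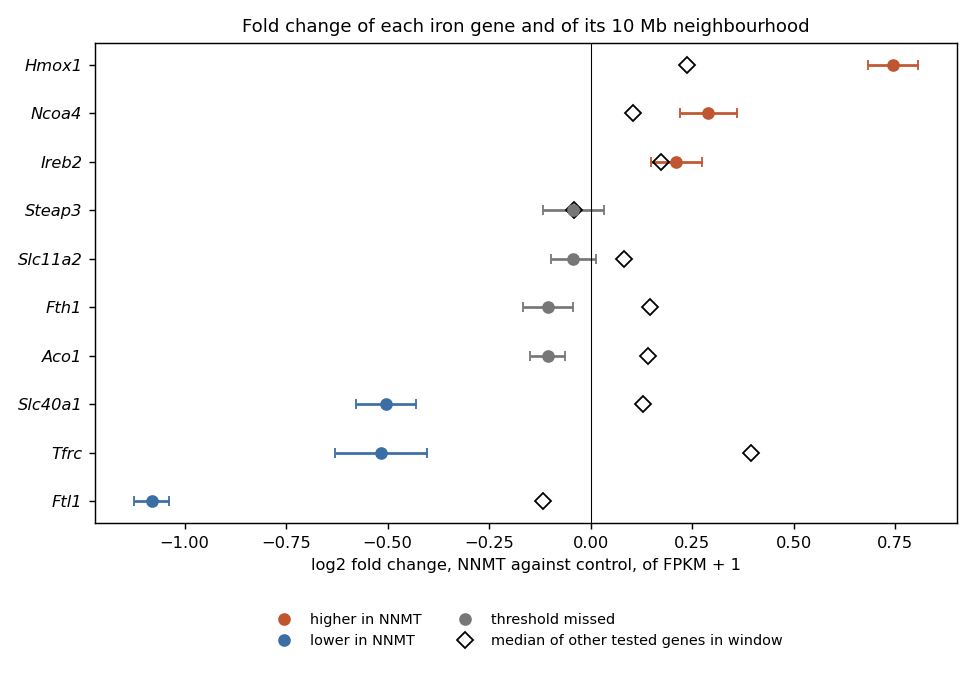
Log2 fold change of each gene, NNMT against control, on FPKM + 1 (points, with 1 SE either side) and the median of the other tested genes in its 10 Mb window (open diamonds). Ftl1 at -1.08 lies far from its window median of -0.12 and Tfrc at -0.52 from 0.39, while Ireb2 at 0.21 lies near 0.17.

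Likeness of pattern was measured as the root mean square distance between genes' log2 levels over the 6 libraries, each centred on its own control mean. The genes nearest to Ftl1 were Acat2, at a distance of 0.034, Etv1 at 0.034 and Chst7 at 0.035. Acat2, a cytosolic acetyl-CoA acetyltransferase, fell from 146.4 to 70.1 FPKM. The genes nearest to Hmox1 were Ebag9 at 0.030, Gpx1 at 0.035 and Ufsp2 at 0.038. Gpx1, a glutathione peroxidase, rose from 79.2 to 133.8 FPKM.

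Other genes of iron and heme handling were counted in 8 lists of 4 to 27 tested genes. The share called ran from 44.4% to 75.0% over the lists, beside 65.6% of all tested genes (35.0% higher and 30.6% lower), and the counts below are descriptions to be read against these shares.

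Other genes of iron traffic gave 7 higher, 1 lower and 5 not called among 13 tested of 26 listed, with a median log2 fold change of 0.18. Cp, which encodes ceruloplasmin, the ferroxidase that works with ferroportin, rose 2.93-fold from 4.68 ± 0.54 to 13.7 ± 0.37 FPKM (SD, n = 3 each, limma adjusted p 1.19e-07). Steap1, a relative of Steap3, rose 1.70-fold from 41.0 ± 1.53 to 69.6 ± 3.21 FPKM (limma adjusted p 8.09e-07), and its neighbour Steap2 rose 1.48-fold (limma adjusted p 8.56e-06). Slc39a8, a zinc and iron importer, rose 2.14-fold from 1.45 to 3.11 FPKM (limma adjusted p 2.55e-05). Both Cp and Slc40a1 serve export, and they moved in opposite directions. Slc40a1 passed the filter only through the controls, so its fall adds no support to this contrast.

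Among 8 genes that act on iron regulatory proteins or ferritin breakdown, 3 were higher, 2 lower and 3 not called, with a median of 0.10. Sqstm1, an autophagy receptor, rose 1.16-fold (limma adjusted p 0.00178), as did Rbx1, a ubiquitin ligase subunit (limma adjusted p 0.00487). Tax1bp1, an autophagy receptor for ferritin, rose 1.12-fold (limma adjusted p 0.0132). Herc2, a ubiquitin ligase for NCOA4, fell 1.34-fold (limma adjusted p 0.00179).

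Of 6 other genes known to carry an iron-responsive element 4 were tested, and 3 were lower and none higher, with a median of -0.23. Cdc14a, a phosphatase, fell 2.17-fold from 1.86 to 0.860 FPKM (limma adjusted p 7.24e-05), and like Slc40a1 it passed the filter only through the controls, so its call adds no support to that count. Pfn2, an actin-binding profilin, fell 1.25-fold (limma adjusted p 0.000416), and Cdc42bpa, a kinase, fell 1.11-fold (limma adjusted p 0.0228).

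Heme supplies the substrate of Hmox1, and its synthesis genes moved both ways: of 12 tested, 4 were higher, 2 lower and 6 not called, with a median of 0.03. Cpox, a late enzyme of the pathway, rose 1.89-fold from 15.3 ± 0.09 to 29.0 ± 1.65 FPKM (limma adjusted p 3.04e-07). It lies on chromosome 16, where the median of 347 tested genes was 0.29. Uros rose 1.51-fold (limma adjusted p 0.000167), while Urod fell 1.30-fold (limma adjusted p 0.000121) and the mitochondrial transporter Abcb10 fell 1.57-fold (limma adjusted p 5.74e-06).

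Of 9 tested genes of heme breakdown and transport, 1 was higher, 3 lower and 5 not called, with a median of -0.09. Flvcr1, described as a heme exporter, fell 2.41-fold from 3.79 to 1.57 FPKM (limma adjusted p 3.59e-06). Blvrb, a biliverdin reductase, fell 1.36-fold (limma adjusted p 4.77e-05), and Abcg2, an efflux pump, rose 1.25-fold (limma adjusted p 0.00133). Pgrmc1, a heme-binding protein, fell 1.99-fold (limma adjusted p 9.94e-08). It lies on the X chromosome, and the part of the chromosome in its value was not tested.

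Iron-sulfur cluster assembly genes gave 12 higher, 6 lower and 9 not called among 27 tested, with a median of 0.08. Nfu1, which delivers clusters in mitochondria, rose 1.49-fold (limma adjusted p 3.78e-06), and Iscu, the scaffold on which clusters form, rose 1.41-fold (limma adjusted p 1.3e-05). Glrx5, which passes clusters on, fell 1.51-fold from 99.7 ± 3.70 to 66.2 ± 4.34 FPKM (limma adjusted p 8.59e-06).

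Hmox1 is repressed by BACH1 and induced by NRF2, and of 8 regulators in or around this pair 5 were higher, 1 lower and 2 not called, with a median of 0.16. Bach1, on chromosome 16, rose 1.60-fold from 6.36 ± 0.22 to 10.2 ± 0.35 FPKM (limma adjusted p 4.76e-06). Nfe2l1, a relative of NRF2, rose 1.48-fold (limma adjusted p 1.1e-05), Mafk, a small MAF partner, rose 1.31-fold (limma adjusted p 0.00339) and Keap1, which restrains NRF2, rose 1.16-fold (limma adjusted p 0.00516). Nfe2l2, which encodes NRF2, was at 35.0 ± 1.93 and 32.9 ± 1.49 FPKM (limma adjusted p 0.191).

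Genes linked to iron-driven lipid peroxidation, not all of them defences against it, gave 2 higher, 2 lower and 4 not called among 8 tested. Their median was -0.05. Slc7a11, the cystine importer, rose 2.40-fold from 2.34 ± 0.15 to 5.62 ± 0.50 FPKM (limma adjusted p 1.28e-06), and Dhodh, a mitochondrial dehydrogenase, rose 1.35-fold (limma adjusted p 0.000114). Gclm, a subunit of the first enzyme of glutathione synthesis, fell 1.41-fold (limma adjusted p 0.000233). Acsl4, a fatty acid ligase on the X chromosome, fell 1.74-fold (limma adjusted p 1.75e-06). Gpx4, the lipid peroxide reductase, was at 170.4 ± 5.72 and 162.7 ± 10.8 FPKM (limma adjusted p 0.308).

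**Figure D4:**
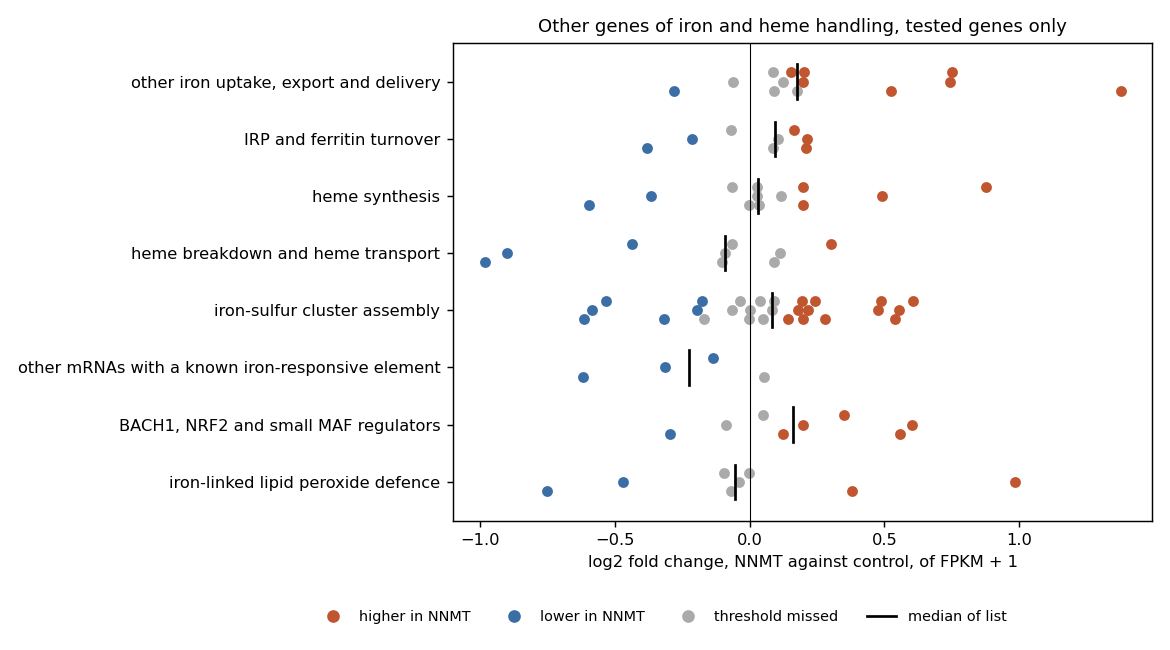
Log2 fold change, NNMT against control, of every tested gene in 8 lists around the 10 genes (points coloured by call) with the list median as a bar. Calls lie on both sides of 0 in all lists but that of other mRNAs with an iron-responsive element, and list medians run from -0.23 to 0.18.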

How the data were processed

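The authors deposited 1 table of values per gene and library. They aligned reads with STAR 2.5 to mm10 after CASAVA, per the submitters' processing notes. The read counter, annotation and strand setting are not stated there. The deposited values were taken as FPKM, because a length per gene and a total per library gave whole reads for 20528 of 20528 genes above 0 (tolerance 0.01 reads). Of these, 14597 fitted the longest GENCODE M21 transcript and 1119 another transcript. For 4812, Fth1, Hmox1 and Ireb2 among them, the length was instead searched for until whole reads resulted, so their fit is weak evidence of the unit. Gene names came from GENCODE M21 (GRCm38), which paired 34490 of 35275 identifiers. The labels number both groups 1 to 3, but 1 NNMT column has no number.

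Genes whose mean reached 1 FPKM were tested (two-sided) with limma 3.58.1 in R 4.3.3 on log2(FPKM + 1), using trended, robust moderation and Benjamini-Hochberg adjustment over all 10882 genes at 0.05. Fold changes in the text are ratios of mean FPKM, and log2 fold changes are on the log2(FPKM + 1) scale. Ratios between genes were tested by exact permutation over libraries. On simulated data for the same 10882 genes, 90, 98, 100 and 100% of genes changed 1.25-, 1.5-, 2- and 4-fold were recovered, with 17 false calls. There 50 genes were changed at each fold, and all genes had the same spread (negative binomial dispersion 0.00225). In the real data 65.6% of genes were called and spread differed by gene, so these rates may not hold for genes that vary more, such as Tfrc.

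All 10 genes were named, and up to 4 called genes per other list with the smallest adjusted p. Some genes of the lists are not reported here. Nfe2l2 and Gpx4 were named after their values were seen, and mouse Nnmt is given because the labels name it. The 10 genes and the lists were chosen with earlier results of these data known. Alternatives were quantile normalization, medians of ratios, other pseudocounts and filters, no trend, no robust moderation, limma-voom on recovered reads, a threshold of 0.01, a replicate block and leaving out each library. Protein sequences were not used here.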

Additional observations from a re-analysis of the deposited data

How the results depend on the processing

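The count of the 10 genes called lower was 5 instead of 3 after scaling by medians of ratios, with Fth1 and Aco1 added, and 2 with a mean of at least 5 FPKM, where Slc40a1 was not tested. Fth1 turned to 0.17 after quantile normalization, and Steap3 ran from -0.091 to 0.046 with a library left out, the latter without NNMT replicate 2. The cause was not tested. With each library left out in turn, 2 to 3 of the 10 were called higher and 3 to 4 lower, and the log2 ratio differences ran from 0.93 to 1.02 for Fth1 to Ftl1, 0.28 to 0.39 for Ireb2 to Aco1 and -0.57 to -0.35 for Tfrc to Fth1. Over all genes, 3366 to 3828 were then higher and 2960 to 3368 lower. A threshold of 0.01 ended the call of Ireb2.

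The labels number both groups 1 to 3, but 1 NNMT column carries no number, so the block used numbers 2 and 3 only. Deviations of same-numbered libraries correlated at 0.212 and 0.110, beside 0.212 and -0.233 for different numbers. So few pairs cannot show whether same-numbered libraries shared a day or batch, and the labels give only the number. A replicate block on those 4 libraries called 3 of the 10 higher and 3 lower, and 3903 and 3207 of all genes. Without the block the same libraries gave 3664 and 2965, in a fit added after seeing the data. With a block, 4 libraries leave very little from which to estimate each gene's own spread, so the blocked counts are no sound check. The blocked log2 ratio differences were 1.04, 0.33 and -0.54. Depth limits Slc40a1 most, at 680 and 382 reads per group.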

Other observations

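Some listed iron genes lay under the filter and were not tested, and they were named after their values were seen. Scara5, which encodes a scavenger receptor that binds ferritin, was at 0.0619, 0.0135 and 0.0166 FPKM in the controls and at 1.30, 0.634 and 1.41 FPKM in the NNMT libraries, from 12 and 477 reads in all. Heph, an X-linked ferroxidase related to ceruloplasmin, was at 0.118, 0.0812 and 0.0866 FPKM in the controls from 47 reads, and 1 read was found in the NNMT libraries together. Bmp6, a signal for hepcidin in liver, had 2 reads in the controls and 21 in the NNMT libraries. Cybrd1, a ferric reductase of the gut, had 12 and 11 reads.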
